A study of Mus musculus with 12 samples.

Results

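The messenger RNAs described here are those of 38 cell cycle and DNA replication genes in mouse macrophages given a STING inhibitor, a STING agonist or both. The genes were taken from a fixed list of symbols, and all 38 were found among the 24062 gene entries of the deposited table. All 38 also passed the filter for testing (more than 10 normalised counts in at least 3 of 12 libraries), as did 11440 entries in all. The cells were primary macrophages grown from the bone marrow of C57Bl/6 mice, labelled wild-type with 1 under passages, and RNA of 4 groups of 3 libraries was sequenced. One group received both C-178, which inhibits STING covalently, and CMA, which activates mouse STING, a further group received CMA alone and another C-178 alone, each for 2 h, and the last was left unstimulated. The labels do not say whether the 3 libraries of a group came from separate mice or cultures, so p-values measure the spread between these libraries, which may be technical. The extraction protocol in the labels names MEFs (embryonic fibroblasts), while all other labels name macrophages.

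STING is an adaptor of the endoplasmic reticulum that relays the sensing of cytosolic DNA to interferon and inflammatory genes. Dividing cells copy their DNA once per cycle. Origin recognition proteins, CDC6 and CDT1 load the MCM helicase in G1, cyclin E with CDK2 promotes entry into S phase, PCNA clamps polymerases to the fork, and cyclin B with CDK1, PLK1 and the Aurora kinases drive mitosis. Many G1 and S phase genes are switched by E2F factors, and many G2 and M phase genes are switched through CCAAT boxes and the cell cycle genes homology region (CHR), a promoter element bound by the MuvB core of the DREAM complex. Bone marrow precursors proliferate in response to the growth factor CSF1 while they become macrophages, so cultures of this kind usually hold dividing cells.

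Library depth ran from 7049454 to 36438317 recovered reads, and the 3 CMA libraries (7125885 to 7826315) were all shallower than the 3 unstimulated libraries (13907175 to 17449422). The 8 macrophage markers measured summed to between 334070 and 484730 normalised counts in every library, of which Lyz2 alone had 193170 to 297220. With CMA 2 of the 8 were called as higher and 1 as lower, against 19.4% and 17.9% of all tested genes. Fcgr1 had 11685, 12547 and 12459 with CMA and 2328, 1965 and 2056 without stimulation. Csf1r had 20831, 25311 and 23964 with CMA and 32276, 33864 and 33745 without stimulation. The 10 fibroblast markers summed to 480 to 1055 with C-178 plus CMA, 1043 to 2019 with CMA, 911 to 1023 with C-178 and 700 to 743 without stimulation, and Lum was at 0 in 10 of 12 libraries. Of the 9 fibroblast markers tested, 3 rose with CMA and 1 fell. Fap averaged 349 ± 157 with CMA and 2.85 ± 0.28 without stimulation (SD, n = 3 each). Thy1 went the other way, with 4.94, 1.97 and 3.67 with CMA and 26.6, 19.7 and 16.45 without stimulation. The 5 markers of haematopoietic progenitors summed to 107 to 203 with C-178 plus CMA, 166 to 171 with CMA, 200 to 221 with C-178 and 236 to 297 without stimulation. Of the 5, 1 was called with CMA, Cd34, which fell (log2 change -0.93 ± 0.23, limma adjusted p = 0.00614). Kit had 8.24, 21.7 and 22.0 with CMA and 6.08, 6.57 and 15.2 without stimulation. The erythroid markers Hbb-bt and Hba-a1 were at 0 in all 12 libraries. The part of these cell markers in the results that follow was not tested.

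Normalised counts per kilobase of the longest coding transcript set the order of levels in unstimulated macrophages. Pcna, the sliding clamp of DNA polymerases, was highest at 818 per kilobase. Ccnd1 (cyclin D1, the G1 cyclin that answers growth factors) followed at 235 and Rrm1 (the large subunit of ribonucleotide reductase) at 162. Cdc25c, the phosphatase that activates CDK1 at mitosis, was lowest at 8.24 per kilobase and had a mean of 16.0 ± 4.05 normalised counts (SD, n = 3). Mean normalised counts over the 38 genes had a median of 183, against 264 over all tested genes.

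Library 3 of C-178 plus CMA stood apart from the other libraries in these genes, above all in those of mitosis. On the log2(normalised count + 1) scale, 17 of 38 genes lay more than 1 below the mean of libraries 1 and 2 of the same group (44.7%), against 1065 of all 11440 tested genes (9.31%). In the unstimulated and C-178 libraries, each set against the rest of its group, 0.288% to 1.63% of all tested genes lay that low. None of the 38 genes did there. Library 3 was thus unusual over all tested genes too, and a fit with a weight for each library gave it the lowest weight, 0.154. The median difference was -0.84 over the 38 genes and -0.03 over all tested genes. In 26 of the 38 genes this library was the lowest of all 12, which was so for 20.4% of all tested genes. Fewer dividing cells and less RNA per cell cannot be told apart in bulk RNA.

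The genes that were low in library 3 were mostly those of G2 and mitosis. Of the 8 spindle and chromosome genes, 7 lay more than 1 below the other libraries, with a median of -1.80 over the 8. So did 4 of 6 cyclins, 3 of 4 spindle checkpoint and anaphase genes, 2 of 6 kinase and phosphatase genes and 1 of 4 fork and nucleotide genes. None of the 9 origin licensing genes did, and their median was -0.29. A wider list of 50 other mitosis genes held 28 past that mark (56%), a list of 27 checkpoint and recombination genes held 12 (44.4%), and a list of 45 other replication genes held 5 (11.1%). The shares in the other wider lists ran from 0 of 5 CDK inhibitors to 3 of 15 G1 genes and 2 of 10 growth factor genes (20% each), and 4 of 9 tested fibroblast markers lay past the mark (44.4%).

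Plk1, the Polo-like kinase of mitotic entry, had 89.2, 88.5 and 10.7 normalised counts in libraries 1, 2 and 3 of C-178 plus CMA, and library 3 rested on 7 reads. The mean of libraries 1 and 2 was 8.31 times the value of library 3. Ccna2, the cyclin of S and G2 phase, had 133, 146 and 24.4, and Ccnb2, a mitotic cyclin, had 132, 114 and 19.9. Libraries 1 and 2 of these genes lay close together and library 3 was far under both. Top2a, the topoisomerase that untangles sister chromatids, had 453, 446 and 93.2, and Birc5 (survivin, of the chromosomal passenger complex) had 105, 113 and 27.5. Ccnb1, the main mitotic cyclin, had 77.9, 45.7 and 6.11, the last from 4 reads. Cdc25c had 24.9 and 9.995 in libraries 1 and 2 and no read in library 3, where a count of 0 allows up to 3 reads or 4.58 normalised counts (counting error only).

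Other genes did not share that low. Pcna had 2717, 2250 and 2475 normalised counts in libraries 1, 2 and 3 of C-178 plus CMA, so that library 3 lay between the other 2. Mcm3, a subunit of the replicative helicase, had 421, 428 and 466, and E2f1, the transcription factor of S phase genes, had 342, 326 and 406, highest in library 3. Among mitosis genes, Mad2l1 (the spindle checkpoint protein MAD2) had 165, 197 and 185, and Tpx2 (a spindle assembly factor that activates Aurora A) had 282, 398 and 313. Cdk1 had 415, 288 and 275, so that library 3 lay close to library 2. Spearman's rho between the difference and the length of the longest coding transcript was -0.04 over the 38 genes, which share these libraries. It was computed for these genes alone. Library 3 also had the lowest sum of the 12 libraries for fibroblast (480), progenitor (107) and neutrophil markers (446, against 586 to 912 elsewhere), as for macrophage (334070), lymphoid (695) and megakaryocyte markers (243). Dendritic markers were not lowest there (45.8, against 29.4 in CMA library 3). The macrophage sum was close to those of C-178 library 3 (337530) and CMA library 1 (337680). Of the macrophage markers, Cd68 was highest of the 12 libraries there (17329), while Mrc1, Itgam, Emr1 and Mertk were lowest. It had 12962 entries with a read, against 13320 to 14986 elsewhere. The part of these in the low values was not tested. Results that use this group are given with and without that library. Leaving out library 1 or 2 of this group also moved its calls, as given in the closing section.

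**Figure D1:**
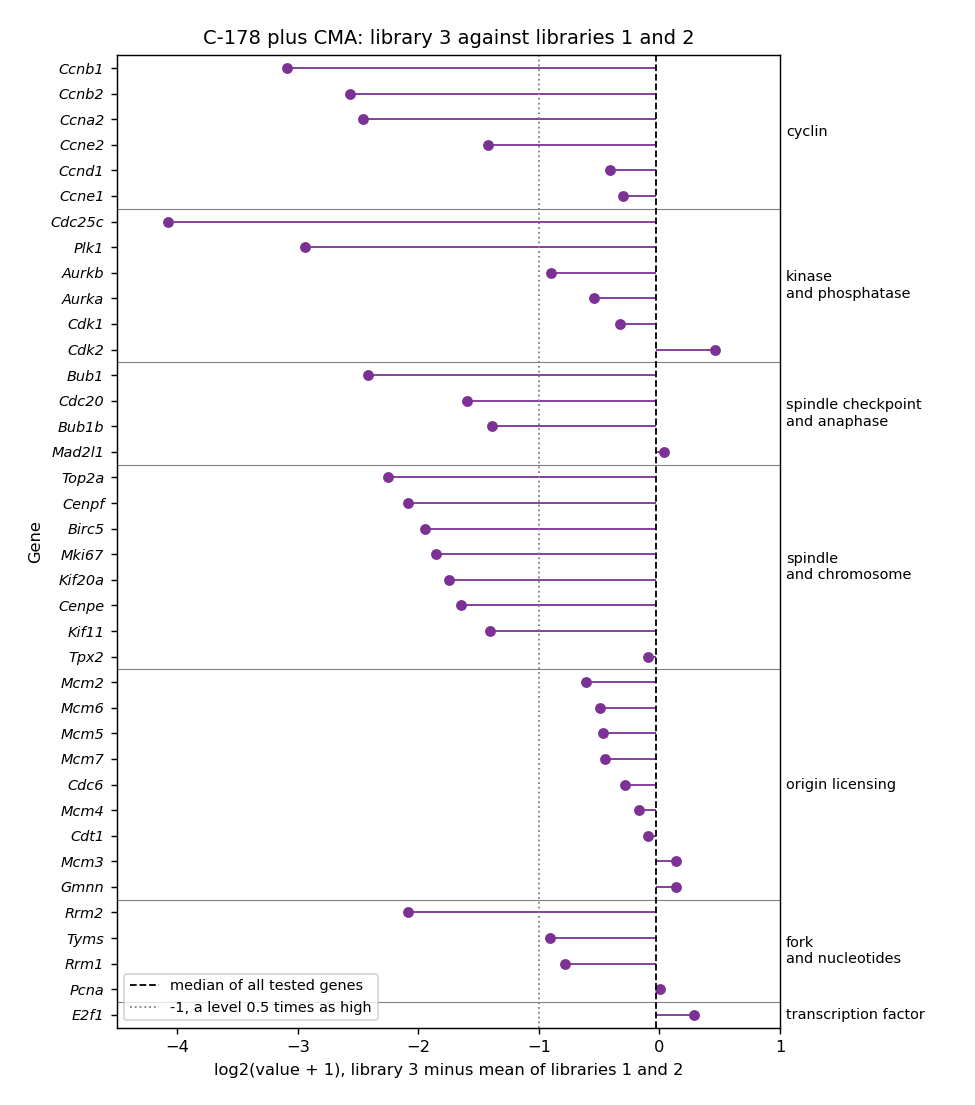
Difference between library 3 and the mean of libraries 1 and 2 of C-178 plus CMA, in log2(normalised count + 1), for the 38 genes grouped by role. Points left of the dotted line lie more than 1 below the other 2 libraries, as 17 genes do, and no origin licensing gene lies there. Cdc25c had no read in library 3, so its place depends on the pseudocount.

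Spread within groups showed the same library. The SD of log2 values within C-178 plus CMA had a median of 0.50 over the 38 genes with all 3 libraries and 0.19 with libraries 1 and 2, against 0.34 with all 3 libraries over all tested genes. It was 0.15 with CMA, 0.16 with C-178 and 0.12 without stimulation, where all tested genes had 0.15, 0.18 and 0.12.

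Promoter windows of 29 of the 38 genes were found in RefSeq (GRCm38.p6), each from 250 bases before to 50 bases after the annotated start. They were searched on both strands for the CHR element TTTGAA, the CCAAT box (CCAAT, the site of NF-Y), an E2F core (TTCCCGC or TTGGCGC) and the interferon-stimulated response element (GAAA, any 2 bases, then GAAA). The CHR element was in 8 of the 13 windows of genes that lay more than 1 below the other libraries in library 3 (61.5%), in 3 of the 16 other windows (18.8%) and in 18.1% of all 27025 windows. CCAAT was in 92.3% of the 13, 62.5% of the 16 and 37.9% of all windows. An E2F core stood in 2 of the 13 windows (15.4%), in 9 of the 16 (56.2%) and in 6.93% of all windows. The interferon-stimulated element was in 3.45% of the 29 windows and in 3.49% of all. In 2 of the 29 windows an E2F core and a CCAAT box shared bases. These shares are descriptions of letters, and the 2 sets of genes were split by values of these libraries.

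The windows of 4 genes are given as examples, and the motifs do not divide the 2 sets. Among genes low in library 3, Birc5 had none of the motifs and Ccnb1 had an E2F core and no CHR element. Among the others, Cdk1 had 2 CHR elements, and Mcm2 had 1 and no E2F core. Plk1 (chr7:122159185-122159484, plus strand) and Ccnb2 (chr9:70421505-70421804, minus strand) belong to genes low in library 3, and Mcm6 (chr1:128359656-128359955, minus strand) and Mcm7 (chr5:138171834-138172133, minus strand) to helicase genes that were not. Capitals mark every match to one of the motifs on either strand, so that CCAAT also appears as ATTGG. The windows of Plk1 and Ccnb2 hold CHR and CCAAT matches, and those of Mcm6 and Mcm7 hold E2F cores and CCAAT boxes.
Plk1: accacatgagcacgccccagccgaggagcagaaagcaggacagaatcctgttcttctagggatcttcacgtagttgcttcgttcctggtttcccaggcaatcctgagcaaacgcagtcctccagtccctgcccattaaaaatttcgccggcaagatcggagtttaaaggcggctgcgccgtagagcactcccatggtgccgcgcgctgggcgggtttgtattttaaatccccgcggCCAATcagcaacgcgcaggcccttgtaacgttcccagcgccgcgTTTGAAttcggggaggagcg
Ccnb2: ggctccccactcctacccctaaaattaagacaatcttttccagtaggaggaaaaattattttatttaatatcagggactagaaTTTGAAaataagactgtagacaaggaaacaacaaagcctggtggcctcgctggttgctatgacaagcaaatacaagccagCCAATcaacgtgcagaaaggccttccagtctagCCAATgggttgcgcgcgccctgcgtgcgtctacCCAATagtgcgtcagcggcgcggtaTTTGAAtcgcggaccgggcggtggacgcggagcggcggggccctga
Mcm6: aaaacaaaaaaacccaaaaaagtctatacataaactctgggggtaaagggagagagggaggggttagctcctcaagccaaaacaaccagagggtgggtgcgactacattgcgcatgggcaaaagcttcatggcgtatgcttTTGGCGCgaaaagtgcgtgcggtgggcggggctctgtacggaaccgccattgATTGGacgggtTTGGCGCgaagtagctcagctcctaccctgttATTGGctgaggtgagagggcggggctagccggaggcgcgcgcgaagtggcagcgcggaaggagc
Mcm7: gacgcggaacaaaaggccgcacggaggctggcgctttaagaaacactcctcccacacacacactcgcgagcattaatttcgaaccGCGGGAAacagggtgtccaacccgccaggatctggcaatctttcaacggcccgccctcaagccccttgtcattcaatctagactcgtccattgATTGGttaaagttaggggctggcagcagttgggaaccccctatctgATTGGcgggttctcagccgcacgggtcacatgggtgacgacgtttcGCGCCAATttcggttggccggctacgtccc

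CMA against no stimulation asks what the agonist alone did to these genes within 2 h. At an adjusted p under 0.05 (limma, Benjamini-Hochberg over 11440 genes), 6 of the 38 genes rose (15.8%, against 19.4% of all tested genes) and 5 fell (13.2%, against 17.9%). These 11 genes are 28.9% of the list, and 37.3% of all tested genes were called in this comparison, so the members' share lies below that background. Without library 3 of C-178 plus CMA, which enters through the shared estimate of spread, the same 11 genes were called and 7 more fell, 18 in all (47.4%, against 45.0% of all tested genes). The median log2 change was -0.19 over the 38 genes and -0.01 over all tested genes. The 3 CMA libraries all lay under the 3 unstimulated libraries in 17 genes (44.7%, against 30.9% of all tested genes) and all above in 9 (23.7%, against 31.0%). With every library thinned to the depth of the shallowest, 6 of the 38 genes rose and 3 fell.

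**Figure D2:**
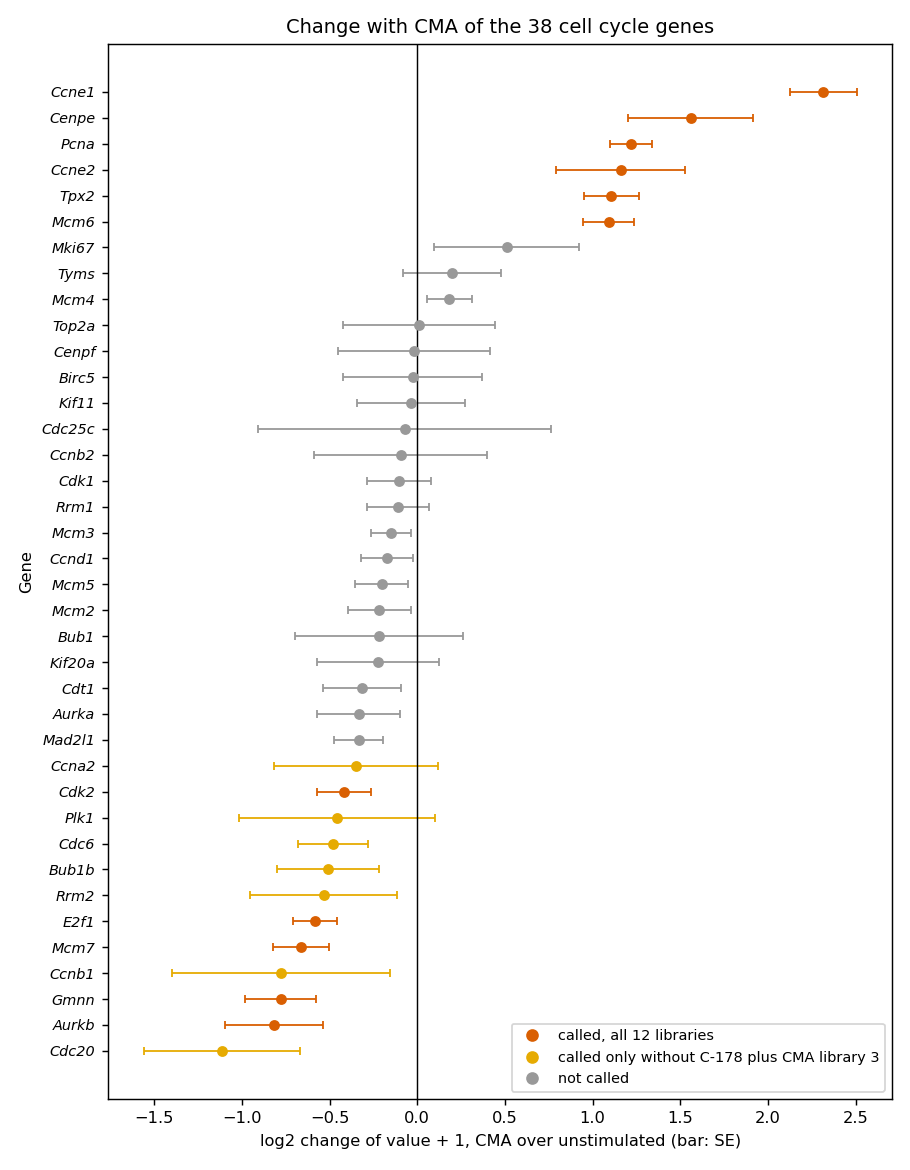
Log2 change of value + 1 of each of the 38 genes, CMA over unstimulated, with its SE from the fit to all 12 libraries. The 6 genes from Ccne1 to Mcm6 lie above 1, and the 5 called falls, from Cdk2 to Aurkb, lie between -0.42 and -0.82.

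Both E cyclins rose with CMA and no other cyclin was called in that direction. Ccne1 (cyclin E1, the partner of CDK2 at the start of S phase; chr7:38097984-38107534, minus strand, GRCm38) had 275, 345 and 308 normalised counts with CMA, against 70.7, 54.3 and 59.5 without stimulation. Every CMA library was far above every unstimulated one. The mean was 5.03 times as high, at 310 ± 35.1 with CMA and 61.5 ± 8.37 without stimulation (SD, n = 3 each), and the log2 change of value + 1 was 2.32 ± 0.19 (SE, limma adjusted p = 4.03e-07). Ccne2 (cyclin E2; chr4:11191351-11204779, plus strand) had 80.8, 138 and 91.8 with CMA, against 47.9, 38.8 and 47.5 without stimulation. These groups did not overlap either, and CMA library 2 was the highest. Its log2 change was 1.16 ± 0.37 (limma adjusted p = 0.0233), and the call was lost when CMA library 2 or any 1 unstimulated library was left out (largest adjusted p 0.107). Ints8, a gene of the Integrator complex that overlaps Ccne2 on the other strand, also rose (0.85 ± 0.15, limma adjusted p = 0.000372), and no source used here gives the strand setting of the counting.

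Cyclins of later phases were not called in the fit to all libraries. Ccnb1 had 24.7, 37.5 and 44.1 normalised counts with CMA and 49.4, 60.9 and 70.9 without stimulation. Ccna2 had 143, 138 and 130 with CMA and 160, 169 and 199 without stimulation. The groups did not overlap in either gene. Without library 3 of C-178 plus CMA both were called as lower, with log2 changes of -0.78 ± 0.26 (limma adjusted p = 0.0246) and -0.35 ± 0.13 (limma adjusted p = 0.0409). Ccnb2 (-0.10 ± 0.49) and Ccnd1 (-0.17 ± 0.15) were called in neither fit.

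Of the kinases and the phosphatase, 2 of 6 fell and none rose. Aurkb (Aurora B, the kinase of the chromosomal passenger complex; chr11:69045647-69051664, plus strand) had 57.7, 55.3 and 71.6 normalised counts with CMA, against 114, 94.3 and 118 without stimulation. Cdk2 (the kinase partner of cyclins E and A; chr10:128697939-128705031, minus strand) had 234, 213 and 239 with CMA, against 334, 293 and 290 without stimulation. In both genes every CMA library was below every unstimulated one. Aurkb changed by -0.82 ± 0.28 (limma adjusted p = 0.0330) and Cdk2 by -0.42 ± 0.15 (limma adjusted p = 0.0477). Neither call held throughout: that of Aurkb was lost without CMA library 1 or 2 or unstimulated library 1 or b (largest adjusted p 0.104), and that of Cdk2 without any 1 CMA or unstimulated library or without C-178 library 1 or 3 (largest adjusted p 0.160). Cdk2 overlaps Pmel on the other strand.

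Plk1 had 77.5, 75.0 and 88.1 normalised counts with CMA, against 132, 96.1 and 106 without stimulation. The groups did not overlap, and the gene was called as lower without library 3 of C-178 plus CMA (-0.46 ± 0.15, limma adjusted p = 0.0254). Cdk1, the central mitotic kinase (-0.11 ± 0.18), Aurka, the kinase of spindle poles (-0.33 ± 0.24), and Cdc25c (-0.07 ± 0.83) overlapped between the groups and were called in neither fit.

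Spindle checkpoint genes gave no call with all libraries and 2 falls of 4 genes without library 3 of C-178 plus CMA. Cdc20, the activator of the anaphase-promoting complex, had 14.8, 13.8 and 38.5 normalised counts with CMA and 38.8, 47.8 and 47.5 without stimulation. CMA libraries 1 and 2 were far lower, and library 3 lay just under the lowest unstimulated one. The CMA values rest on only 9, 7 and 21 reads, against 51, 80 and 75 in the unstimulated libraries. Its log2 change was -1.11 ± 0.45 in the fit to all libraries (limma adjusted p = 0.0658) and -1.11 ± 0.34 without library 3 of C-178 plus CMA (limma adjusted p = 0.0154). Elovl1, on the other strand over Cdc20, fell by 0.56 ± 0.16 on the log2 scale (limma adjusted p = 0.0154). Bub1b, which encodes the checkpoint protein BUBR1, had 122, 105 and 128 with CMA and 179, 159 and 168 without stimulation, and was called as lower without that library (-0.51 ± 0.13, limma adjusted p = 0.00691). Bub1, a checkpoint kinase (-0.22 ± 0.48), and Mad2l1 (-0.33 ± 0.14, limma adjusted p = 0.0780) were not called.

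Of the 8 spindle and chromosome genes, 2 rose with CMA. Cenpe (the kinetochore motor CENP-E; chr3:135212537-135273611, plus strand) had 579, 718 and 762 normalised counts with CMA, against 260, 219 and 216 without stimulation. The lowest CMA library had more than any unstimulated one, and the log2 change was 1.56 ± 0.36 (limma adjusted p = 0.00335). Tpx2 (chr2:152847964-152895321, plus strand) had 501, 584 and 538 with CMA, against 241, 271 and 241 without stimulation. Its groups were apart as well, with a log2 change of 1.11 ± 0.16 (limma adjusted p = 6.94e-05). Mki67, the proliferation antigen Ki-67 that coats mitotic chromosomes, had 1131, 1399 and 1489 with CMA and 1012, 908 and 888 without stimulation. Its CMA libraries were all above the unstimulated ones, but the fit to all libraries did not call it (0.51 ± 0.41, limma adjusted p = 0.364). A fit to the compared groups alone called it as higher (0.51 ± 0.10, limma adjusted p = 0.000869), and edgeR did not (adjusted p = 0.326). Top2a (0.01 ± 0.43), Birc5 (-0.03 ± 0.40), Kif11, the motor that separates spindle poles (-0.04 ± 0.31), Cenpf, a kinetochore protein (-0.02 ± 0.43), and Kif20a, a motor of cytokinesis (-0.22 ± 0.35), were not called.

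Origin licensing genes moved in both directions. Mcm6 (a helicase subunit; chr1:128331590-128359664, minus strand) had 1116, 1399 and 1325 normalised counts with CMA, against 646, 582 and 568 without stimulation. Mcm7 (another subunit of the same ring; chr5:138164583-138172422, minus strand) had 157, 166 and 187 with CMA, against 264, 284 and 259 without stimulation. The groups were apart in both genes, in opposite directions. Mcm6 rose (1.09 ± 0.15, limma adjusted p = 4.49e-05) and Mcm7 fell (-0.66 ± 0.16, limma adjusted p = 0.00431). Mcm7 shares bases on the other strand with Cops6 (0.13 ± 0.16) and with Ap4m1, which fell by 1.26 ± 0.19 on the log2 scale (limma adjusted p = 0.000113).

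Gmnn (geminin, the inhibitor of CDT1; chr13:24751845-24761923, minus strand) had 107, 109 and 86.3 normalised counts with CMA, against 192, 162 and 165 without stimulation. All CMA libraries were lower, with a log2 change of -0.78 ± 0.20 (limma adjusted p = 0.00761). Cdc6, a loader of the helicase, had 31.3, 33.6 and 31.2 with CMA and 49.4, 47.2 and 39.2 without stimulation, and was called only without library 3 of C-178 plus CMA (-0.48 ± 0.18, limma adjusted p = 0.0456). The other licensing genes were not called, from -0.31 ± 0.22 in Cdt1, the other loader, to 0.18 ± 0.13 in Mcm4. Mcm2, Mcm3 and Mcm5 lay in between, at -0.22 ± 0.18, -0.15 ± 0.11 and -0.20 ± 0.15.

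Pcna (chr2:132249162-132253314, minus strand) had 2655, 3113 and 2911 normalised counts with CMA, against 1317, 1184 and 1225 without stimulation. The CMA libraries were all above the unstimulated ones, with means of 2893 ± 229 and 1242 ± 67.9 (SD, n = 3 each) and a log2 change of 1.22 ± 0.12 (limma adjusted p = 2.26e-06). Pcna has named pseudogenes, and no source used here says how reads shared with them were counted. Rrm1 (-0.11 ± 0.18) and Tyms, thymidylate synthase (0.20 ± 0.28), were not called. Rrm2, the small subunit of ribonucleotide reductase, had 72.5, 94.7 and 110 with CMA and 150, 119 and 130 without stimulation, and was called as lower only without library 3 of C-178 plus CMA (-0.53 ± 0.17, limma adjusted p = 0.0228).

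E2f1 (chr2:154559407-154569892, minus strand) fell with CMA. It had 254, 249 and 261 normalised counts with CMA, against 401, 396 and 351 without stimulation, with a log2 change of -0.58 ± 0.13 (limma adjusted p = 0.00229). The CMA libraries differed little among themselves and all lay below the unstimulated ones. Of the 11 calls of this comparison, 8, those of Ccne1, Cenpe, Tpx2, Gmnn, Mcm6, Mcm7, Pcna and E2f1, held under all 23 alternative settings tried, which include leaving out each library in turn.

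**Figure D3:**
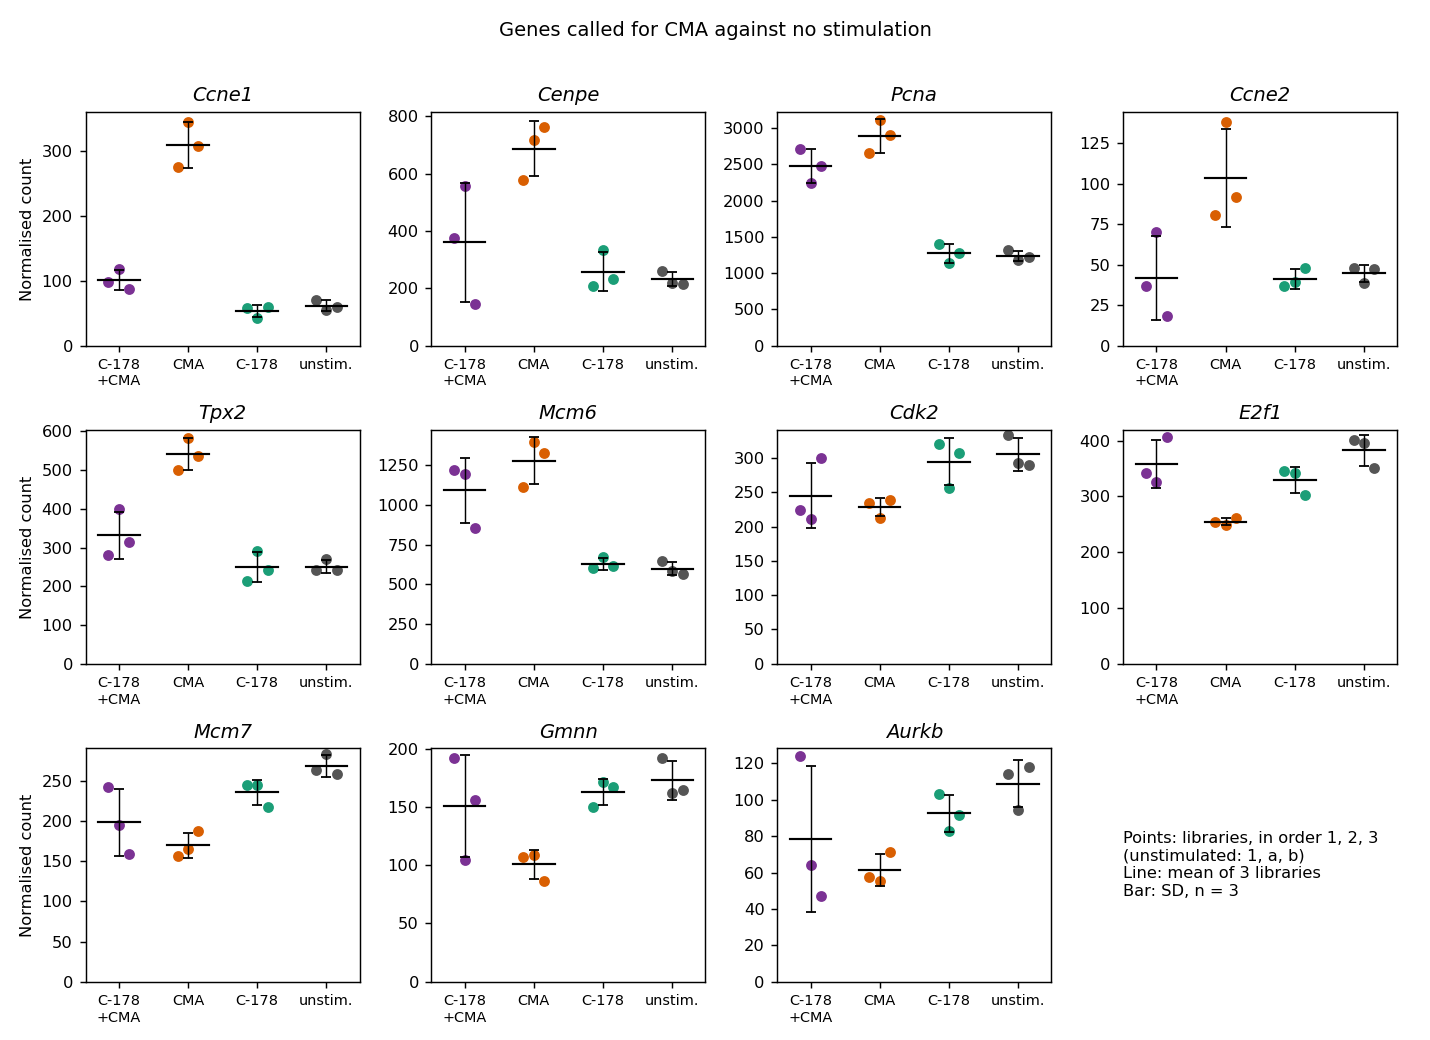
Normalised counts per library of the 11 genes called for CMA against no stimulation, in the 4 groups, with the mean (line) and SD (bar, n = 3). The rises of Pcna and Mcm6 are seen with C-178 plus CMA as well, while Ccne1 sits at 87.1 to 119 there, against 275 to 345 with CMA.

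C-178 alone gave no called change in these genes. At an adjusted p under 0.05 limma called 0 of 38, against 0.0962% of all tested genes, and edgeR and DESeq2 also called 0. Before adjustment limma put 1 of the 38 genes under 0.05, Ccnd1, against 3.67% of all tested genes. Ccnd1 had 688, 700 and 661 normalised counts with C-178, against 988, 889 and 762 without stimulation. Its groups did not overlap, and the log2 change was -0.36 ± 0.15 (limma adjusted p = 1). In 7 genes all C-178 libraries lay below all unstimulated ones (18.4%, against 7.68% of all tested genes), among them E2f1, Cdc6 and Mcm7, and in 0 genes did they all lie above (against 7.87%). A fit with a weight for each library called 5 of the 38 genes as lower, namely Ccnd1, Cdc6, Cdt1, Mcm7 and E2f1, with log2 changes of -0.32 to -0.52, where it called 8.97% of all tested genes as lower. That fit leaned on unstimulated library a (weight 8.37) and C-178 library 3 (4.57), against 0.560 to 1.48 for the rest of these groups. It called 1849 genes in all, against 11 in the main fit. Without library 3 of C-178 plus CMA no gene was called either (background 0.253%), and 2 were under 0.05 before adjustment, against 6.7% of all tested genes.

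C-178 plus CMA against CMA asks which of these levels the inhibitor altered in the presence of the agonist. Of the 38 genes, 6 were lower and 1 was higher, 18.4% of them, against 24.1% of all tested genes (13.5% lower and 10.6% higher). Without library 3 of C-178 plus CMA, 6 of these 7 were called in the same direction and no other gene was (15.8%, against 19.3% of all tested genes). The gene lost was Cenpe.

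Ccne1 had 97.8, 119 and 87.1 normalised counts with C-178 plus CMA, against 275, 345 and 308 with CMA. All 3 libraries, library 3 included, were below every CMA library, and the log2 change was -1.61 ± 0.19 (limma adjusted p = 0.000132) or -1.51 ± 0.20 without library 3 (limma adjusted p = 0.000274). Ccne2 had 36.8, 70.0 and 18.3 with C-178 plus CMA, against 80.8, 138 and 91.8 with CMA. Its groups were also apart, but the size depended on library 3, with -1.45 ± 0.37 with that library (limma adjusted p = 0.0137) and -0.98 ± 0.29 without it (limma adjusted p = 0.0313). Ints8, its neighbour on the other strand, fell by 0.71 ± 0.15 on the log2 scale (limma adjusted p = 0.00460). The call of Ccne2 was lost without CMA library 2 (limma adjusted p = 0.0685).

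Of the spindle and chromosome genes, 4 were lower with C-178 plus CMA than with CMA. Tpx2 had 282, 398 and 313 normalised counts with C-178 plus CMA, against 501, 584 and 538 with CMA, and its groups were apart with or without library 3 (-0.72 ± 0.16, limma adjusted p = 0.00633, and -0.69 ± 0.17, limma adjusted p = 0.0133). Cenpf (chr1:189640606-189688086, minus strand) had 41.4, 57.1 and 10.7 with C-178 plus CMA, against 87.4, 101 and 91.8 with CMA, and library 3 of C-178 plus CMA rested on 7 reads. Mki67 (chr7:135689784-135716361, minus strand) had 479, 975 and 188 with C-178 plus CMA, against 1131, 1399 and 1489 with CMA. In both genes all 3 libraries were below the CMA group, library 3 the lowest and by the widest margin. Cenpf changed by -1.62 ± 0.43 (limma adjusted p = 0.0178), and by -0.92 ± 0.23 without library 3 (limma adjusted p = 0.0141). Mki67 changed by -1.58 ± 0.41 (limma adjusted p = 0.0156), and by -0.96 ± 0.26 without library 3 (limma adjusted p = 0.0227). Both calls were lost without CMA library 2 or CMA library 3 (largest limma adjusted p 0.0639 for Cenpf and 0.0593 for Mki67).

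Cenpe had 375, 558 and 145 normalised counts with C-178 plus CMA, against 579, 718 and 762 with CMA. Library 2 of C-178 plus CMA came close to the CMA group and library 3 was far below it. The call (-1.12 ± 0.36, limma adjusted p = 0.0371) was lost without library 3 (-0.57 ± 0.21, limma adjusted p = 0.0769), and also without library 1 of that group or any CMA or unstimulated library or C-178 library 3.

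E2f1 was the gene that was higher with the inhibitor. It had 342, 326 and 406 normalised counts with C-178 plus CMA, against 254, 249 and 261 with CMA. The groups did not overlap, with a log2 change of 0.49 ± 0.13 (limma adjusted p = 0.0158), and 0.39 ± 0.12 without library 3 (limma adjusted p = 0.0390). The call was lost without CMA library 2 (limma adjusted p = 0.0598). Gmnn (0.54 ± 0.20, limma adjusted p = 0.0651), Mcm7 (0.21 ± 0.16), Aurkb (0.24 ± 0.28) and Cdk2 (0.08 ± 0.15), which CMA had lowered, were not called between these groups. The same was true of Pcna (-0.22 ± 0.12) and Mcm6 (-0.24 ± 0.15), which CMA had raised.

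The change brought by CMA was then compared between macrophages with and without C-178 (the interaction). It differed in 2 of the 38 genes, 1 lower and 1 higher (5.26%), against 9.94% of all tested genes (5.99% lower and 3.95% higher). The change of Ccne1 with CMA was lower with C-178 than without it, by -1.40 ± 0.27 on the log2 scale (limma adjusted p = 0.00880), and by -1.30 ± 0.26 without library 3 of C-178 plus CMA (limma adjusted p = 0.00953). That of E2f1 was higher by 0.70 ± 0.18 (limma adjusted p = 0.0305), and by 0.60 ± 0.16 without library 3 (limma adjusted p = 0.0343). The call of E2f1 was lost on leaving out unstimulated library 1 or a, C-178 library 2 or 3 or any CMA library (largest adjusted p 0.0899). Cenpf differed only without library 3 (-1.11 ± 0.31, limma adjusted p = 0.0367, against -1.81 ± 0.61 and adjusted p = 0.0725 with it), and Tpx2 (-0.70 ± 0.22, limma adjusted p = 0.0597) was not called.

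C-178 plus CMA against C-178 gave 3 rises and 3 falls, 15.8% of the 38 genes, against 26.1% of all tested genes (13.5% higher and 12.6% lower). Pcna had 2717, 2250 and 2475 normalised counts with C-178 plus CMA, against 1399, 1141 and 1274 with C-178. Mcm6 had 1220, 1198 and 857 with C-178 plus CMA, against 603, 673 and 613 with C-178. Ccne1 had 97.8, 119 and 87.1 with C-178 plus CMA, against 58.1, 42.2 and 59.6 with C-178. All 3 genes were higher in every C-178 plus CMA library, library 3 included. Pcna rose by 0.96 ± 0.12 (limma adjusted p = 4.63e-05), Mcm6 by 0.78 ± 0.15 (limma adjusted p = 0.00160) and Ccne1 by 0.92 ± 0.19 (limma adjusted p = 0.00303), and each of these held under all 24 alternatives, without library 3 at 0.96 ± 0.13, 0.94 ± 0.12 and 1.02 ± 0.20.

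The 3 falls against C-178 were in spindle and chromosome genes and leaned on library 3. Cenpf had 41.4, 57.1 and 10.7 normalised counts with C-178 plus CMA, against 85.7, 151 and 97.4 with C-178 (-1.83 ± 0.43, limma adjusted p = 0.00732). It remained called without library 3, at -1.13 ± 0.23 (limma adjusted p = 0.00216). Kif20a (chr18:34624613-34633277, plus strand) had 155, 157 and 45.8 with C-178 plus CMA, against 190, 250 and 222 with C-178. All 3 libraries were under the C-178 group and library 3 by far the most, with -1.07 ± 0.35 (limma adjusted p = 0.0358) and -0.49 ± 0.15 without library 3 (limma adjusted p = 0.0227). Its call was lost without any 1 C-178 or unstimulated library or CMA library 2 (largest adjusted p 0.120). Mki67 overlapped between the groups, with 479, 975 and 188 normalised counts with C-178 plus CMA, against 896, 1451 and 882 with C-178, and its call (-1.23 ± 0.41, limma adjusted p = 0.0418) was lost without library 3 (-0.61 ± 0.26, limma adjusted p = 0.103) and on leaving out any 1 library other than C-178 plus CMA library 2.

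Without library 3, 8 of the 38 genes were called against C-178 (21.1%, against 27.6% of all tested genes). Cdk2 (-0.43 ± 0.14, limma adjusted p = 0.0330) and Ccna2 (-0.43 ± 0.15, limma adjusted p = 0.0426) were then lower and Cenpe (0.86 ± 0.21, limma adjusted p = 0.00909) was higher. Library numbers were taken to pair these 2 groups from residual correlations alone (0.45, 0.43 and 0.26), as the labels name no pairing. Library 1 was the deep one in both (36438317 and 28476438 reads, against 7049454 to 8812631 in libraries 2 and 3). The part of depth in these correlations was not tested. With the number as a block 7 genes were called, the 6 above and Ccna2 (-1.25 ± 0.41, limma adjusted p = 0.0489). Thus 4 fell, against 12.8% of all tested genes that fell with the block.

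C-178 plus CMA against no stimulation gave 4 calls, 3 higher and 1 lower, among the 38 genes, against 21.5% of all tested genes (11.1% higher and 10.5% lower). Pcna (0.99 ± 0.12, limma adjusted p = 3.52e-05), Mcm6 (0.85 ± 0.15, limma adjusted p = 0.000817) and Ccne1 (0.71 ± 0.19, limma adjusted p = 0.0165) were higher, and Cenpf was lower (-1.64 ± 0.43, limma adjusted p = 0.0152). Mean Pcna was 2481 ± 233 normalised counts with C-178 plus CMA and 1242 ± 67.9 without stimulation, and mean Ccne1 was 101 ± 16.0 with C-178 plus CMA and 61.5 ± 8.37 without stimulation (SD, n = 3 each). The call of Ccne1 was lost without unstimulated library a or b (largest adjusted p 0.0799) and that of Cenpf without unstimulated library a (limma adjusted p = 0.0530). Without library 3 these 4 genes were still called, Cenpf at -0.94 ± 0.23 (limma adjusted p = 0.00750), Ccne1 at 0.81 ± 0.20, Mcm6 at 1.01 ± 0.12 and Pcna at 0.99 ± 0.13. A pair of further calls came with Cdk2 lower (-0.49 ± 0.14, limma adjusted p = 0.0187) and Cenpe higher (0.99 ± 0.21, limma adjusted p = 0.00367), which made 6 (15.8%, against 25.5% of all tested genes). Ccne2 (-0.29 ± 0.37), Tpx2 (0.39 ± 0.16), Mki67 (-1.07 ± 0.41) and E2f1 (-0.10 ± 0.13) were not called.

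**Figure D4:**
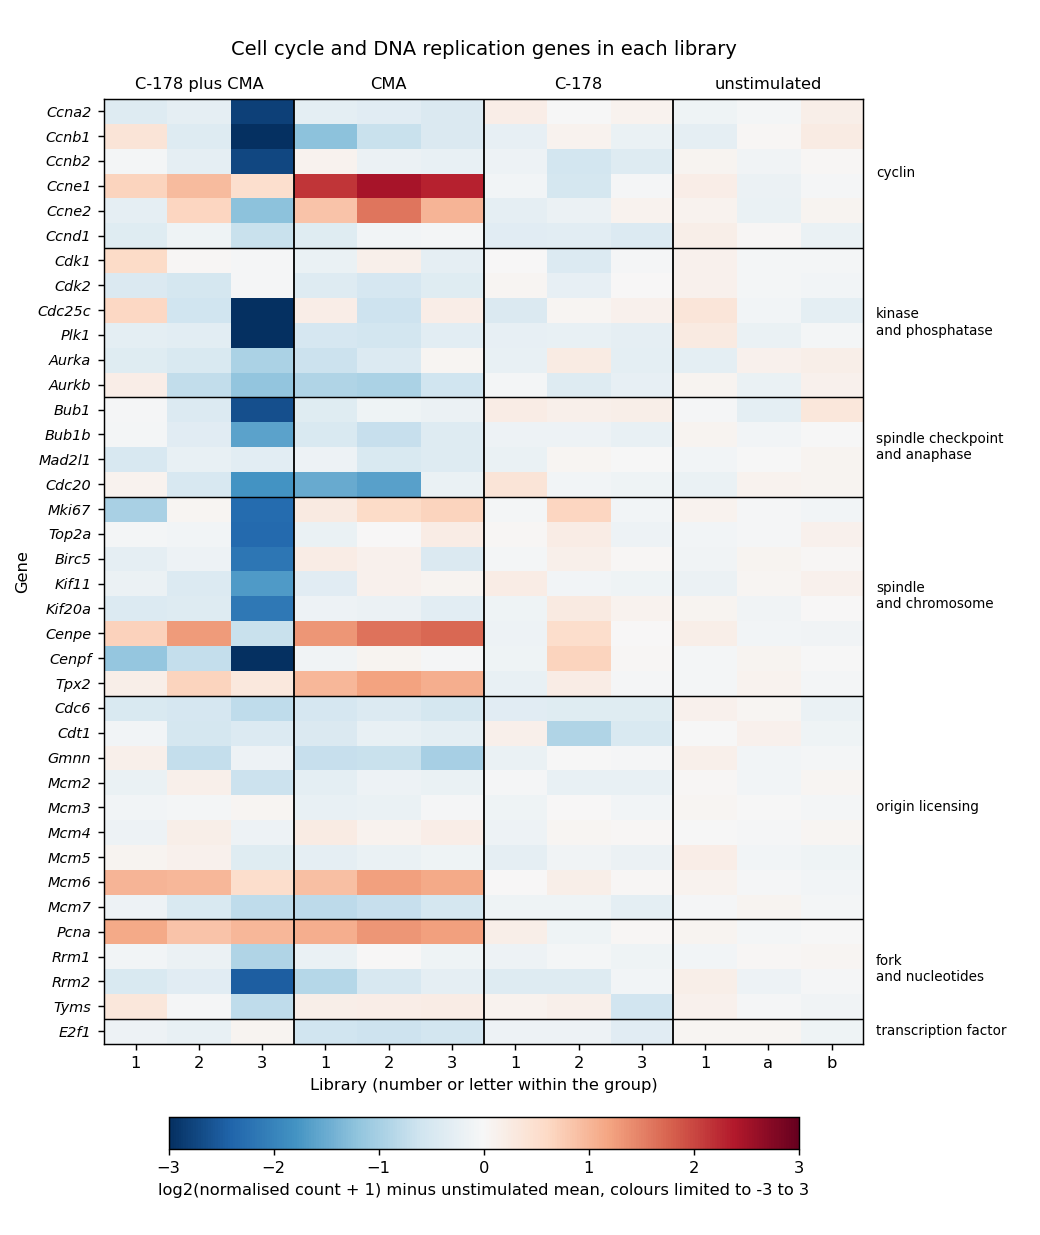
Log2(normalised count + 1) of the 38 genes in each of the 12 libraries, as the difference from the mean of the unstimulated libraries, grouped by role. The blue column is library 3 of C-178 plus CMA, where 17 genes lie more than 1 below the unstimulated mean, and Ccne1, Cenpe, Tpx2, Mcm6 and Pcna are red in all 3 CMA libraries.

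Wider lists of genes around the cycle were counted in the same way for CMA against no stimulation, where 19.4% of all tested genes rose and 17.9% fell. Of 45 other replication genes, 9 rose and 2 fell, with a median log2 change of 0.14. The rises were led by Dck, which salvages deoxynucleosides, with 4501 ± 289 normalised counts with CMA and 722 ± 165 without stimulation (SD, n = 3 each; log2 change 2.66 ± 0.17, limma adjusted p = 4.13e-08). Mcm10, a replication initiation factor (1.77 ± 0.38), Wdhd1, a fork protein (1.62 ± 0.23), the origin recognition genes Orc1 (1.58 ± 0.48) and Orc4 (1.13 ± 0.15), and Rfc3, of the loader of PCNA (0.93 ± 0.17), also rose. Of 50 other mitosis genes, 3 rose and 5 fell, with a median of -0.14. Fbxo5, an inhibitor of the anaphase-promoting complex (-1.80 ± 0.25), Espl1, which encodes separase (-1.14 ± 0.25), and Incenp, of the chromosomal passenger complex (-1.10 ± 0.13), fell. Pttg1, which encodes securin (1.09 ± 0.13), and the spindle motor Kif15 (1.25 ± 0.36) rose.

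Genes that govern entry into the cycle changed in both directions. Of 15 other G1 cyclins, kinases and phosphatases, 2 rose and 3 fell. Ccnd2, cyclin D2, had 407 ± 5.68 normalised counts with CMA and 53.3 ± 10.97 without stimulation (2.93 ± 0.40, limma adjusted p = 4.63e-05), and the ubiquitin ligase gene Fbxw7 rose too (1.14 ± 0.19). Ccnf, cyclin F (-1.66 ± 0.27), Skp2, of the ligase that degrades p27, and the phosphatase gene Cdc25b (-1.01 ± 0.17) fell. Of 5 CDK inhibitor genes tested, Cdkn1a, which encodes p21 (1.68 ± 0.12, limma adjusted p = 8.70e-08), and Cdkn2d (0.81 ± 0.23) rose and Cdkn1b, which encodes p27, fell (-1.90 ± 0.21, limma adjusted p = 5.73e-06). Among 22 genes of the RB, E2F and DREAM group, 5 rose and 6 fell, with Mybl2 (2.69 ± 0.34), the MAX partner gene Mxd1 (2.61 ± 0.22) and Rbl1, which encodes p107 (2.11 ± 0.33), among the rises and E2f2 (-2.55 ± 0.27) and Myc (-1.40 ± 0.27) among the falls.

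Checkpoint and growth arrest genes also held rises and falls. Of 27 checkpoint and recombination genes, 5 rose and 2 fell, and the kinase genes Atm (2.85 ± 0.21) and Atr (1.65 ± 0.19), the fork protection gene Timeless (1.69 ± 0.22) and the clamp gene Hus1 (1.53 ± 0.27) were among the rises. Rad9a, of the same clamp as Hus1, fell (-1.15 ± 0.14). Of 23 p53 target and growth arrest genes, 7 rose and 5 fell, with Plk2 (2.47 ± 0.17) and Gadd45b (2.08 ± 0.16) among the rises and Sesn1, which encodes sestrin 1 (-3.76 ± 0.16, limma adjusted p = 7.60e-10), the largest fall. In the list of macrophage growth factor signalling, Csf1 (2.31 ± 0.23) and the exchange factor gene Sos1 (1.98 ± 0.30) rose and Maf (-1.91 ± 0.28) and Csf1r, the receptor for CSF1 (-0.52 ± 0.17), fell. C-178 alone gave no call in any of these 8 lists.

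With C-178 plus CMA against CMA, 10.6% of all tested genes were higher and 13.5% lower. The p53 target and growth arrest list held 2 higher and 8 lower of 23 genes (2 and 9 without library 3), and the RB, E2F and DREAM list 2 higher and 7 lower of 22 (2 and 3 without library 3). Of the 27 checkpoint and recombination genes 1 was higher and 5 lower (2 and 3 without library 3), of the 50 mitosis genes 1 and 5 (0 and 2), and of the 45 replication genes 1 and 3 (1 and 2). The G1 list held 2 higher and 2 lower of 15 in both fits, the growth factor list 1 higher and 2 lower of 10 (1 and 1 without library 3), and the CDK inhibitors 0 of 5 (1 lower without library 3). Mybl2 (-2.12 ± 0.34, limma adjusted p = 0.00104), Atm (-1.97 ± 0.21, limma adjusted p = 6.09e-05), Wdhd1 (-1.59 ± 0.23, limma adjusted p = 0.000535) and Gadd45b (-1.71 ± 0.16, limma adjusted p = 1.61e-05) were lower with the inhibitor. E2f2 (1.35 ± 0.27), Sesn1 (1.44 ± 0.16) and Rad9a (0.74 ± 0.14) were higher. Without library 3 these 7 genes were called in the same directions, from -1.96 ± 0.36 in Mybl2 to 1.44 ± 0.17 in Sesn1. The interaction was called in the 7 as well, from -2.62 ± 0.48 in Mybl2 to 1.82 ± 0.23 in Sesn1, and without library 3 that of E2f2 was lost (1.25 ± 0.39, limma adjusted p = 0.0547).

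Gene models limit some of these values. Of the 38 genes, 13 overlap a gene on the other strand and 6 a gene on the same strand in GENCODE M21, and 4 (Ccnb1, Ccnb2, Pcna and Tyms) have a named pseudogene. The library kit marks strand, and no source used here names the counting tool or its strand setting.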

How the data were processed

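Messenger RNA of 12 libraries, 3 in each of 4 groups, was measured by sequencing with a stranded TruSeq kit, per the labels. The submitters' processing notes name Bowtie2 2.2.1, limma 3.18.13 and build mm10. No source used here says how reads were counted, with which annotation or whether by strand. The authors deposited a signal per gene and library, named normalised counts per the file header; that each library was divided by a size factor, as DESeq2 does, is inferred from that header. Every value was a whole multiple of the library's smallest step (100% within a tolerance of 0.01), so reads were recovered. A further 12 columns, which hold Cook's distances, were not used, and 2 unstimulated columns share a heading and are called a and b.

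log2(value + 1) of 11440 genes with more than 10 normalised counts in at least 3 libraries was fitted over all 12 libraries with limma 3.58.1 (R 4.3.3, moderated with an intensity trend), and p-values were adjusted by Benjamini and Hochberg; an adjusted p under 0.05 is a call. A fold change on this scale understates the change of low genes. edgeR 4.0.16 and DESeq2 1.42.0 on recovered reads, other pseudocounts, filters and scalings, array weights, thinned reads, fits to the compared groups alone and leaving out each library were alternatives. On data simulated for CMA against no stimulation with 11440 genes, the fit recovered 22.7% of changes of 0.5, 74.6% of 1 and 100% of 2 on the log2 scale. Only 66, 67 and 67 genes were changed at these sizes, none of low mean, against 4271 called in the data. Each simulated gene had the same spread in all libraries, and no library was made to stand apart. These shares may therefore not hold for the data.

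Members and gene lists were chosen with earlier results of these data known. All 38 members are accounted for. Values per library are given for called members and for those the text turns on, and of each wider list up to 6 called genes with the largest absolute log2 change in any comparison against no stimulation are named, except 1 that is not reported here. Libraries with the same number deviated together from their group means in C-178 plus CMA and C-178 (residual correlations 0.45, 0.43 and 0.26), the criterion set for pairing, and not in the other groups. Annotation was GENCODE M21 and RefSeq GRCm38.p6.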

Additional observations from a re-analysis of the deposited data

Results flagged for a closer look

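For 2 of the 38 genes (5.26%, against 9.94% of all tested genes) the change with CMA differed between macrophages with and without C-178. The difference itself was tested (limma, all 12 libraries). In Ccne1 the difference was -1.40 on the log2 scale (-1.3984 unrounded), with rises of 0.92 ± 0.19 with C-178 and 2.32 ± 0.19 without it. In E2f1 the difference was 0.70 (0.6993 unrounded), with a change of 0.11 ± 0.13 with C-178, which was not called, and a called change of -0.58 ± 0.13 without it. The Ccne1 difference was called in all 22 alternatives, and that of E2f1 was lost in 7 of 22, each of which left out 1 library.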

How the results depend on the processing

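Of 30 called results among the 38 genes, 15 held under every alternative, and none of the 228 results of the 38 genes turned in direction where called. For CMA against no stimulation, 5 genes fell, against 3 with no filter or with thinned reads, 13 with only the compared groups and 11 with array weights, which also called 7380 genes in all against 4271. The 6 rises there became 7 with only the compared groups and 8 with array weights. For C-178, array weights gave 5 falls against 0, and calls over all genes went to 18 with quantile scaling, 38 with DESeq2, 31 with only the compared groups and 1849 with array weights, against 11. For C-178 plus CMA against CMA, the rise of 1 gene became 2 with edgeR or DESeq2 and 0 with only the compared groups or the block; the 6 falls became 2 with only the compared groups, and calls over all genes, 2760, became 854 there and 1031 with the block. Against C-178, the 3 falls became 1 with no filter or edgeR and 0 with only the compared groups, where calls over all genes were 1338 against 2988. Against no stimulation, the 1 fall with C-178 plus CMA became 2 with pseudocount 10, a filter of 50, edgeR, DESeq2 or array weights, 5 with quantile scaling, 3 with thinned reads and 0 with only the compared groups, where calls over all genes were 1531 against 2464. In the interaction, the 1 lower gene became 3 with DESeq2 and 6 with array weights, the 1 higher gene 2 with array weights, and calls over all genes 1764 with DESeq2 and 3111 with array weights, against 1137.

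Leaving out 1 library gave, for CMA against no stimulation, 5 to 6 rises, 3 to 12 falls (12 without C-178 plus CMA library 3) and 3315 to 5152 calls over all genes; for C-178 0 falls and 4 to 29 calls over all genes. C-178 plus CMA against CMA gave 0 to 2 rises, 2 to 12 falls and 1344 to 4711 calls; against C-178, 3 to 4, 1 to 10 and 1941 to 4181; against no stimulation, 2 to 4, 0 to 14 and 1651 to 3342; the interaction, 0 to 2, 1 to 6 and 343 to 3699. The most falls against CMA (12), against C-178 (10) and in the interaction (6) came without C-178 plus CMA library 2. Calls over all genes were also highest without library 2 in each comparison that uses this group. The 14 falls of C-178 plus CMA against no stimulation came without its library 1. The cause of these differences was not tested. The replicate block gave 4 falls and 0 rises against CMA, where numbers do not pair the groups (correlations -0.14, 0.18 and -0.16), losing Cenpe, Tpx2 and E2f1; against C-178 it changed no call but that of Ccna2. Quantile scaling moved the median of all genes to -0.11 for CMA against no stimulation, against -0.01. Depth limits Cdc25c, Ccnb1, Cenpf, Plk1, Cdc20 and Bub1, which rest on 0, 4, 7, 7, 8 and 9 reads in library 3 of C-178 plus CMA. In CMA libraries 1, 2 and 3, Cdc20 rests on 9, 7 and 21 reads and Cdc25c on 11, 5 and 10. Cdc6 has 19, 17 and 17 reads there and Ccnb1 15, 19 and 24.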
